A study of Mus musculus with 6 samples.

Results

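The lipocalin genes Lcn8, Lcn2, Ptgds, Apod and Rbp4, were followed in primary mouse brain cultures exposed to 1,25-dihydroxyvitamin D3 (1,25D), the active hormone made from vitamin D. They were taken by name from the 19938 genes that the array's annotation names by 1 symbol, and each of the 5 had 1 row in the deposited table. Lcn8 was chosen because it was among the genes with the clearest difference between treated and control cultures, so its difference is described here and not tested. The other 4 were chosen as members of the same protein family. There were 6 arrays, 3 of control cultures that received vehicle and 3 of cultures that received 1,25D at 10 nM, and the labels call the 3 of each group biological replicates. All 6 cultures came from OF1 mouse brain at embryonic day 17, had formed neurons and glia in the presence of fetal calf serum, and were in medium without serum or growth factors when treated. How long the cultures were treated is not stated in the labels. Nothing in the labels says whether replicates came from separate litters or dissections, so the p-values here measure only the spread between samples, which may be technical.

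Lipocalins are small proteins folded as a barrel around a pocket that holds a fatty or otherwise poorly soluble molecule, and most are secreted. Lcn8, also called mEP17, is best known from the epididymis and can bind retinoids. Lcn2, or neutrophil gelatinase-associated lipocalin, binds bacterial siderophores and is strongly induced in reactive astrocytes. Ptgds makes prostaglandin D2 and is abundant in the meninges, the choroid plexus and oligodendrocytes. Apod carries arachidonic acid and other lipids and is made by oligodendrocytes and fibroblasts. Rbp4 carries retinol in blood. 1,25D acts through the vitamin D receptor, a transcription factor that pairs with a retinoid X receptor on DNA.

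Many secreted lipocalin genes of the mouse lie side by side, and in RefSeq's gene order Lcn8 stands between Lcn15 and Lcn5. Their promoter windows are shown because these are adjacent genes of 1 family of which only Lcn8 was chosen for a difference on these arrays. Each window is RefSeq's (GRCm38.p6) and runs 5′ to 3′ on the gene's strand, from 250 bases before the gene's start to 50 bases after it. The windows are chr2:25652868-25653167 for Lcn8, chr2:25643894-25644193 for Lcn15 and chr2:25657702-25658001 for Lcn5, all on the plus strand. Capitals mark hexamers of the kind bound by the vitamin D receptor, searched on both strands. The hexamers that begin with A were AGGTCA with its variant AGGTGA, and AGTTCA with its variant AGTTGA. The hexamers that begin with G were GGGTCA with its variant GGGTGA, and GGTTCA with its variant GGTTGA. A capital run that is none of these is one of them read on the other strand.
Lcn8: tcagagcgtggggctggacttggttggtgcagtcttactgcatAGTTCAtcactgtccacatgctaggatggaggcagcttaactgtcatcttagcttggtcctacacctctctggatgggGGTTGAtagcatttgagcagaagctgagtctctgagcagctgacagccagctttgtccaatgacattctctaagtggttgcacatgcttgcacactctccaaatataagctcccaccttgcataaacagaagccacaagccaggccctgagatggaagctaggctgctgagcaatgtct
Lcn15: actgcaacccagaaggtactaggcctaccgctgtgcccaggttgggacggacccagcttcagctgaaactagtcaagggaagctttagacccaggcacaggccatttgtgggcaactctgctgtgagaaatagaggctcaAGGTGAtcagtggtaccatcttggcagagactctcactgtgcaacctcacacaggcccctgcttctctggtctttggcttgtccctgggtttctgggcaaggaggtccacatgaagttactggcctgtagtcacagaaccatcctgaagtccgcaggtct
Lcn5: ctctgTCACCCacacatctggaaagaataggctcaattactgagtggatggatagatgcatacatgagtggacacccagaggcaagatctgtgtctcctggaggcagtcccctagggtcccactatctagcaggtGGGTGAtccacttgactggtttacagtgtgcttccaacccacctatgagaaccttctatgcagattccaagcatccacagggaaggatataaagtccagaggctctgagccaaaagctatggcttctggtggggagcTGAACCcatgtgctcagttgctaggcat
The Lcn8 window held 2 of these hexamers, AGTTCA starting 207 bases and GGTTGA starting 129 bases before the gene's start, against 1 in the Lcn15 window and 3 in the Lcn5 window. Of all 32851 RefSeq promoter windows of this length, 66.7% held at least 1 and 32.7% at least 2. Full receptor elements place such hexamers as a direct repeat with a spacer of 3 bases. No window of the 5 lipocalins, of which Rbp4 has 2 windows, held that repeat in these letters, and 0.256% of all windows did. A hexamer is a match of letters and not a site of binding, and elements outside the window were not searched.

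Lcn8 was about 2 times as high in treated cultures as in controls. Its log2 intensity was 6.81, 6.73 and 6.67 on control arrays 1, 2 and 3 and 7.81, 7.62 and 7.76 on 1,25D arrays 1, 2 and 3. Every treated array lay above every control array, and the spread inside either group was small beside the gap. The means were 6.74 ± 0.07 and 7.73 ± 0.10 (SD, n = 3 each), a log2 difference of 0.99 ± 0.10 (SE) or 1.99-fold. Between arrays of equal replicate number the difference was 1.00, 0.89 and 1.09. In 17 genes, Lcn8 among them, every such difference was at least as large as the lowest of Lcn8, and 25 genes had a larger mean difference in either direction. The control level lay near the lower quartile of all genes, which was 6.69 to 6.86 over the arrays. The deposited values carry no detection call, and arrays in general understate changes of dim genes.

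Of the 5 lipocalins, 1 passed as higher and 0 as lower at an adjusted p under 0.05 (limma over all genes), and the one was Lcn8. Over all genes 0.0251% passed as higher and 0% as lower, that is 5 genes and none; at an unadjusted p under 0.05 there were 190 and 105. With equal replicate numbers as a block, 18 genes or 0.0903% passed as higher, and Lcn8 was again the 1 lipocalin. Since Lcn8 was chosen by this contrast, nothing is read from that count. The count was 0 whenever any 1 of the 6 arrays was left out, while the log2 difference of Lcn8 stayed between 0.95 and 1.05. It was also 0 after quantile normalisation or median centring, where the difference was 0.97 and 0.98.

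**Figure D1:**
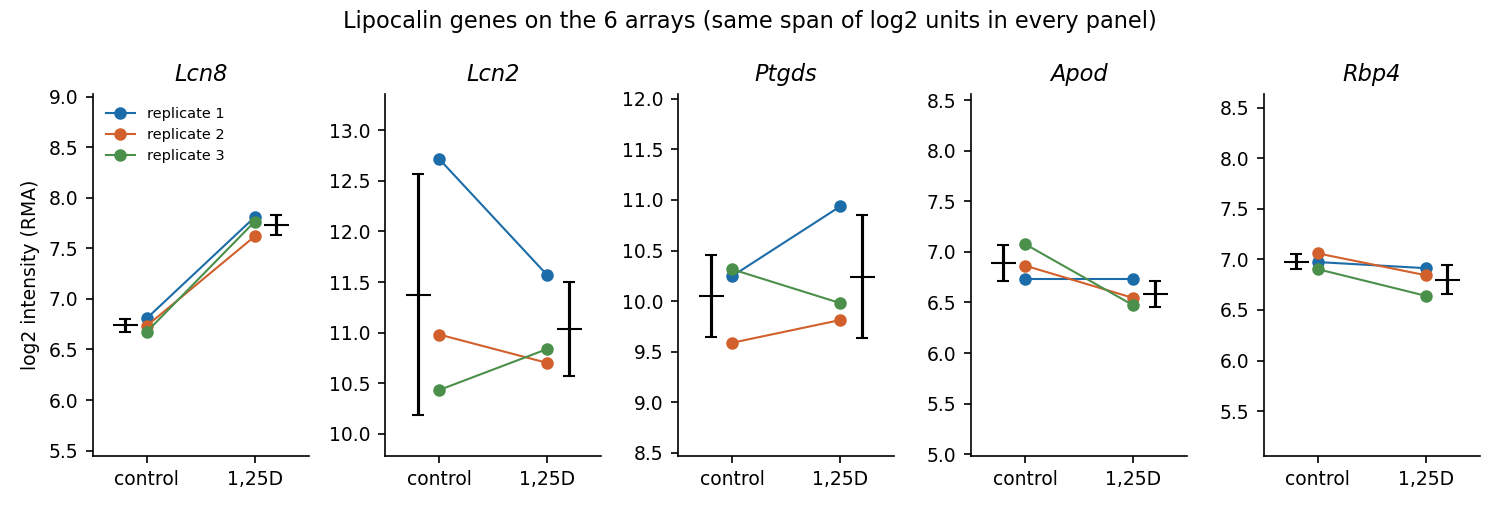
Log2 intensity (vertical axis, RMA) of the 5 lipocalins on the 3 control and 3 1,25D arrays; coloured lines join arrays of equal replicate number, and black bars show mean ± SD (n = 3). The 3 Lcn8 lines run from between 6.67 and 6.81 up to between 7.62 and 7.81. Those of Lcn2 and Ptgds run up in some replicates and down in others, and those of Apod and Rbp4 run level or down.

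None of the 4 other lipocalins passed (limma, adjusted p = 1.00 for each), and none had groups that did not overlap, against 2.63% of all genes that were higher and 1.52% that were lower without overlap. Their intervals differ in width. The 95% interval of the fold between treated and control cultures, not adjusted over genes, was 0.332 to 1.88 for Lcn2, 0.689 to 1.90 for Ptgds, 0.661 to 0.987 for Apod and 0.742 to 1.05 for Rbp4. With equal replicate numbers as a block the intervals of Lcn2 and Ptgds were narrower, 0.512 to 1.22 and 0.848 to 1.54. A rise of Lcn8's size lay outside all 4 intervals in both fits, while smaller rises of Lcn2 or Ptgds did not. A fall of the same log2 size lay inside the interval of Lcn2 without the block, which in log2 was -1.59 to 0.91. In log2, the upper limits of Lcn2 and Ptgds without the block, 0.91 and 0.92, lay just under Lcn8's 0.99. Without moderation of the variance their SEs were 0.74 and 0.42, against 0.54 and 0.31 with it. Intervals from the larger SEs would be wider, so the fit without the block does not firmly exclude such a rise of Lcn2 or Ptgds.

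Lcn2 had the widest spread of the 5. Its log2 intensity was 12.71, 10.98 and 10.43 on control arrays 1, 2 and 3 and 11.57, 10.70 and 10.84 on the treated arrays. Control array 1 stood highest and control array 3 lowest, with all treated arrays in between. The log2 difference was -0.34 ± 0.54 (SE), and by equal replicate number it was -1.15, -0.28 and 0.40. Without control replicate 1 it turned to 0.33, and without control replicate 3 it was -0.81; neither passed.

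Reactive astrocyte genes were set beside Lcn2, which is induced with them in injured brain and was left out of the list. Of 11 measured, 11 had a lower mean in treated cultures and 0 passed. The list was written with earlier results of these data known, so nothing is read from that count. The median log2 difference was -0.28, against 0.007 over all genes, 9375 of which were below 0. Gfap, listed with the astrocyte markers and not here, had differences of -0.51, 0.11 and 0.14 in replicates 1, 2 and 3. On control arrays 1, 2 and 3 the mean log2 level of the 11 genes was 10.64, 10.17 and 10.57. On the treated arrays it was 10.20, 10.07 and 10.13. Serpina3n, a secreted protease inhibitor, had a log2 difference of -0.52 ± 0.31 and Osmr, the receptor for oncostatin M, of -0.28 ± 0.17 (SE). Steap4, a metalloreductase named after its values were seen, was 10.87, 8.61 and 8.97 in controls and 8.35, 8.35 and 9.09 in treated cultures, so that control array 1 was highest here as it was for Lcn2. Timp1, an inhibitor of matrix proteases also named after its values were seen, was 9.16, 7.64 and 8.63 in controls and 8.96, 7.33 and 7.80 in treated cultures. In replicate 1 the difference was -2.53 for Steap4 and between -0.58 and -0.01 for the other 10 genes. The list's median difference was -0.29, -0.03 and -0.27 in replicates 1, 2 and 3. In a mixed culture, fewer cells of a type and less RNA per cell cannot be told apart.

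**Figure D2:**
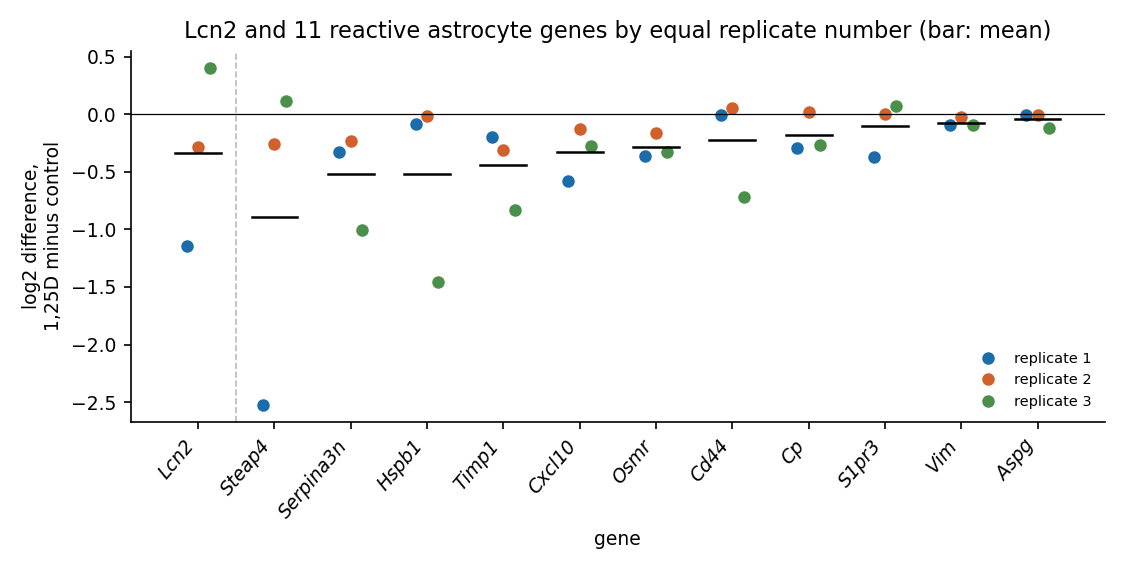
Log2 difference, 1,25D minus control, between arrays of equal replicate number (points) and its mean (bars) for Lcn2 and 11 reactive astrocyte genes, with genes along the horizontal axis. All 11 bars to the right of the dashed line lie below 0. Lcn2, Steap4, Cxcl10, S1pr3, Osmr and Cp have their lowest point in replicate 1, and the other genes in replicate 3.

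The surface proteins and signals around Lcn2 gave no called gene. Slc22a17, a receptor for Lcn2, had log2 intensities of 11.10, 11.14 and 10.69 in controls and 11.07, 11.30 and 10.83 in treated cultures, a difference of 0.09 ± 0.17 (SE). Lrp2, or megalin, an endocytic receptor that takes up several lipocalins, had a difference of -0.13 ± 0.13 (SE). Of 16 measured genes that raise Lcn2 or handle iron, 0 passed, 7 lay above 0 and the median was -0.04. Hamp, which encodes the iron hormone hepcidin, had the lowest unadjusted p of these, with 5.34, 5.05 and 5.35 in controls and 5.86, 5.38 and 5.72 in treated cultures. Its groups did not overlap, and 2.63% of all genes were likewise higher without overlap. Its difference was 0.41 ± 0.15 (SE, limma adjusted p = 1.00), and its level lay far under the lower quartile of genes. Ftl1, the light chain of ferritin, had a difference of 0.29 ± 0.17 (SE).

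Ptgds differed more between replicates than between groups. Its log2 intensity was 10.25, 9.59 and 10.31 in controls and 10.94, 9.81 and 9.98 in treated cultures. The array of replicate 2 was lowest in both groups, and the groups overlapped. The log2 difference was 0.19 ± 0.31 (SE), and by replicate number it was 0.69, 0.22 and -0.33. Leaving out 1 array moved it from -0.15, without 1,25D replicate 1, to 0.41. It also fell below 0 without control replicate 2, at -0.04.

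Of the 17 measured genes that make, sense or degrade prostaglandin D2 and related prostanoids, 0 passed, 8 lay above 0 and the median log2 difference was -0.02. Ptgs2, the inducible cyclooxygenase that supplies the substrate of Ptgds, had a mean log2 intensity of 6.97 ± 0.67 in controls and 7.27 ± 0.48 in treated cultures (SD, n = 3 each), a difference of 0.30 ± 0.35 (SE). Hpgds, the other prostaglandin D2 synthase, had a difference of -0.04 ± 0.15, and Ptgdr, a prostaglandin D2 receptor, of 0.01 ± 0.14 (SE). The 2 smallest unadjusted p-values of the list belonged to Pla2g4a, a phospholipase that frees arachidonic acid, with -0.21 ± 0.15, and to Ptgdr2, a second prostaglandin D2 receptor, with 0.16 ± 0.15 (SE).

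Apod was lower in treated cultures in 2 of the 3 replicates and the same value in the other. Its log2 intensity was 6.73, 6.86 and 7.08 in controls and 6.73, 6.55 and 6.47 in treated cultures. The 2 arrays of replicate 1 hold the identical deposited number, so the groups touch there, and in replicates 2 and 3 the treated array was lower, with log2 differences of -0.32 and -0.60. The difference over all arrays was -0.31 ± 0.12 (SE), with an unadjusted p of 0.040 and an adjusted p of 1.00 (limma). Without both arrays of replicate 1 it was -0.46. Apod was 1 of 1094 genes, 5.49% of all, with identical values on the replicate 1 arrays. Counting rows instead of genes, 1514 were identical in replicate 1, against 7 in replicate 2 and 11 in replicate 3. What made these values identical was not tested.

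Rbp4 was lower in treated cultures by a small amount in each replicate. Its log2 intensity was 6.97, 7.06 and 6.90 in controls and 6.91, 6.84 and 6.64 in treated cultures. The groups overlapped through treated array 1, which lay just above control array 3. The log2 difference was -0.18 ± 0.11 (SE), and by replicate number it was -0.06, -0.22 and -0.26. Leaving out 1 array moved it between -0.24 and -0.10, the latter without 1,25D replicate 3. Of all genes, 11% were lower in all 3 replicates. Apod and Rbp4, like Lcn8 in controls, lay near the lower quartile of genes, where small differences say little.

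The genes that work with Rbp4 were measured too. Ttr, transthyretin, which holds Rbp4 in plasma and is made by the choroid plexus, was 10.21, 9.90 and 9.86 in controls and 9.95, 9.69 and 10.60 in treated cultures, a difference of 0.09 ± 0.23 (SE). Stra6, the Rbp4 receptor that takes up retinol, had a difference of 0.15 ± 0.12, and Stra6l, its relative in liver and gut, of 0.23 ± 0.13 (SE). Of the 10 receptors and partners of lipocalins, all measured, 0 passed, 7 lay above 0 and the median was 0.08. Bsg, or basigin, a reported Apod receptor, had a difference of 0.07 ± 0.10, and Lmbr1l, a membrane protein first described as a lipocalin receptor, of 0.17 ± 0.10 (SE). Of 9 genes of retinol storage and oxidation, 0 passed and 4 lay above 0, with a median of 0.00. Aldh1a1, which oxidises retinal to retinoic acid, was 10.41, 10.35 and 9.94 in controls and 9.51, 10.00 and 9.17 in treated cultures, a difference of -0.67 ± 0.22 (SE, adjusted p = 1.00, limma). With equal replicate numbers as a block the SE of Aldh1a1 was 0.12 and its adjusted p 0.27 (limma). Dgat1, an acyltransferase that can esterify retinol, had a difference of 0.19 ± 0.11 (SE).

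The wider lipocalin family showed no called gene. Of 28 other secreted lipocalins, 21 were measured; 0 passed, 10 lay above 0 and 11 below, and in 0 were the groups apart. Their log2 differences ran from -0.16 for Mup5, a major urinary protein, to 0.16 for Lcn10, with a median of -0.01. The mean control level of 16 of the 21 was below the lower quartile of all genes averaged over the arrays. Lcn6 and Obp2b, neighbours of Lcn8 with the 2 smallest unadjusted p of the list, had differences of 0.15 ± 0.12 and 0.13 ± 0.10 (SE). Urinary proteins have near-identical copies that may share probes, and of their genes 3 had a row of their own.

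**Figure D3:**
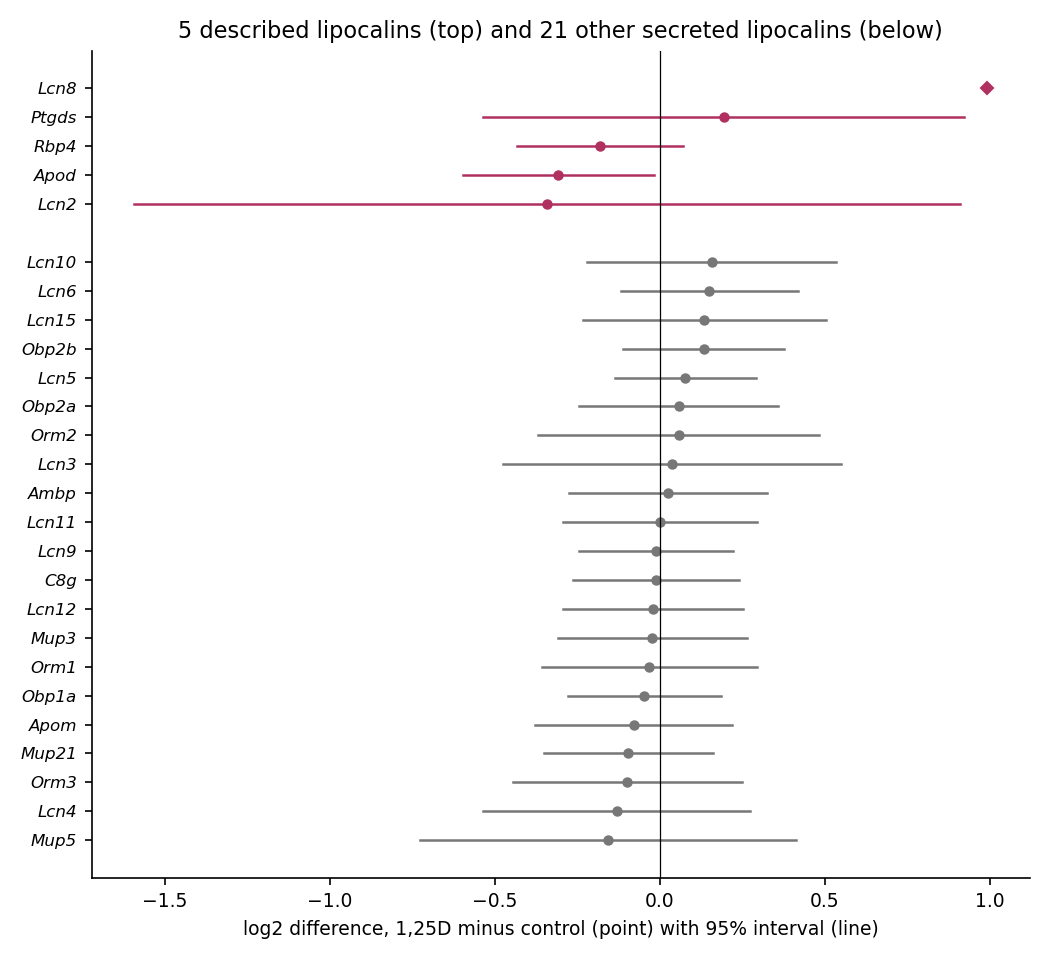
Log2 difference, 1,25D minus control (horizontal axis, points), with its 95% interval from limma, not adjusted over genes (lines), for the described lipocalins in red and the 21 other secreted lipocalins in grey, each group in order of size. Lcn8 is drawn as a diamond without an interval at 0.99; the grey points lie between -0.16 and 0.16.

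On the chromosome Lcn8 stands between Lcn15 and the epididymal lipocalins Lcn5, Lcn6 and Lcn10. Of the 10 genes before and the 10 after it in RefSeq's order, 18 were measured, 0 passed and 14 lay above 0. Over all genes 53% lay above 0. The 18 neighbours had a median log2 difference of 0.08 and a highest of 0.22, for Phpt1, a phosphohistidine phosphatase. On the side of its start Lcn15 had log2 intensities of 6.34, 5.96 and 6.08 in controls and 6.53, 6.03 and 6.23 in treated cultures. On the other side Lcn5, an epididymal carrier of retinoic acid, had 6.83, 6.71 and 6.73 in controls and 6.83, 6.78 and 6.90 in treated cultures. Both differences, 0.14 ± 0.16 and 0.08 ± 0.09 (SE), were small beside that of Lcn8 and did not pass. The 17 measured genes of a list typical of the epididymis, which includes 5 lipocalins, had a median of 0.06 with 12 above 0, and 0 passed. Spag11a, an epididymal antimicrobial protein, had 0.15 ± 0.11 (SE).

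**Figure D4:**
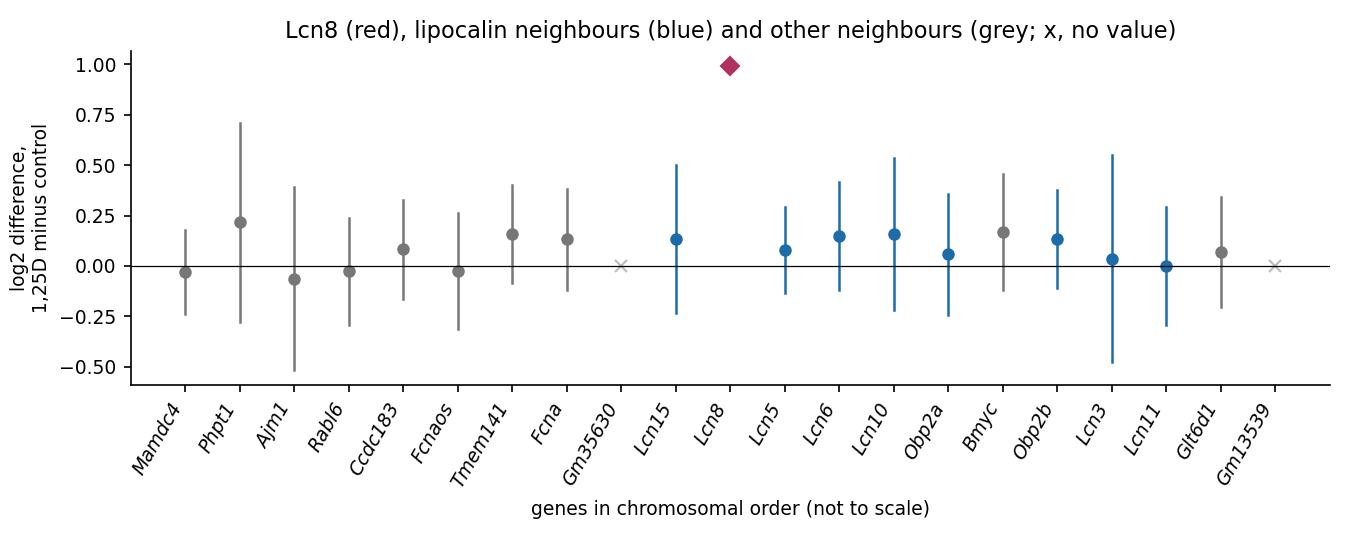
Log2 difference, 1,25D minus control (vertical axis), with its 95% interval from limma, not adjusted over genes, for Lcn8 and the 10 genes on each side in RefSeq's order; the horizontal axis gives order and not distance. Lcn8, a diamond without an interval, stands at 0.99, and the 18 measured neighbours lie between -0.06 and 0.22.

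The intracellular lipid-binding proteins share the barrel fold of the lipocalins and are not secreted. Of 14 measured, 9 lay above 0 and 1 passed as higher, against 0.0251% of all genes. The list was written with earlier results of these data known, so nothing is read from that count. The 1 was Crabp1, a carrier of retinoic acid, at 9.50, 9.80 and 9.17 in controls and 12.55, 11.67 and 12.22 in treated cultures. Its difference was 2.66 ± 0.24 (SE, adjusted p = 0.029, limma). It lost its call after quantile normalisation (limma adjusted p = 0.051) and when any array but 1,25D replicate 2 was left out. The median of the list was 0.05, and Fabp5, a fatty acid carrier named after its values were seen, had 0.51 ± 0.31 (SE). With equal replicate numbers as a block the SE of Fabp5 was 0.10 and its adjusted p 0.37 (limma).

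The genes whose pattern was most like that of Lcn8 over the 6 arrays, by Pearson r of log2 intensity, were Grpr, the receptor for gastrin-releasing peptide (r = 0.997), Slc30a2, a zinc transporter (0.993), Crabp1 (0.990), Olfr544, an olfactory receptor (0.985), and Cnksr2, a scaffold of Ras signalling (0.983). The 6 points fall into the 2 groups, so any gene with a clear difference between them has a high r. Slc30a2 was 7.22, 7.09 and 7.18 in controls and 7.82, 7.72 and 7.81 in treated cultures, all treated arrays above all controls as for Lcn8. Grpr was 6.76, 6.25 and 6.49 in controls and 10.02, 9.41 and 9.78 in treated cultures. When the group means were taken out, so that only spread within groups remained, the most similar genes were Bin3, Gm4780, Zmat5, Vmn1r71 and Riox2, with r from 0.991 to 0.995. None of these 5 was among the first 5. They are the highest of a search over 19938 genes with 6 arrays, so r this high can come from the search alone. Vmn1r71 had a mean of 5.29 in controls, under the lower quartile of genes.

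Markers of the cell types that make these lipocalins, and of others, were measured, and no marker passed in any list. The values carry no detection call, so a level does not show that a cell type was present. The mean control level lay below the lower quartile of all genes for 3 of 10 meningeal fibroblast, 1 of 9 choroid plexus and 1 of 11 oligodendrocyte lineage markers. It did so for 6 of 10 microglia and macrophage, 2 of 9 endothelial and pericyte, 1 of 10 neuron and 0 of 10 astrocyte markers. The astrocyte marker Gfap had a mean log2 intensity of 11.61 ± 0.52 in controls and 11.52 ± 0.48 in treated cultures (SD, n = 3 each), and the neuronal marker Map2 was 10.63, 11.24 and 10.95 and then 10.11, 10.91 and 10.93. For 11 oligodendrocyte lineage markers the mean log2 level was 8.10 to 8.31 in controls and 7.97 to 8.21 in treated cultures, with a median difference of -0.07 and 4 above 0. For 10 meningeal fibroblast markers it was 7.61 to 7.78 and 7.69 to 7.75, with a median difference of 0.02 and 6 above 0. Among the fibroblast markers Col1a1, a collagen chain, had a difference of 0.42 ± 0.18 (SE) and groups that did not overlap, and Igf2, a growth factor, had 0.14 ± 0.11. For 9 choroid plexus markers it was 8.32 to 8.61 and 8.38 to 8.69, with a median of 0.02, and the median was -0.13, -0.07 and 0.21 in replicates 1, 2 and 3. Of the astrocyte markers 2 of 10 lay above 0 (median -0.07), and of the neuron markers 2 of 10 (median -0.04). Of the microglia and macrophage markers 8 of 10 did (median 0.06), and of the endothelial and pericyte markers 6 of 9 (median 0.02). Over all genes 53% lay above 0. Pdgfrb, a receptor of pericytes, had a difference of 0.48 ± 0.20 (SE, unadjusted p = 0.047, adjusted p = 1.00, limma), with overlapping groups. By equal replicate number its difference was 0.47, 0.39 and 0.60. With the replicate number as a block its SE was 0.08 and its adjusted p 0.23 (limma). The other genes with the smallest unadjusted p in their lists were Cdh5 of endothelium (0.17), Sostdc1 and Cldn2 of choroid plexus (0.35 and -0.19), Aldh1l1 and Glul of astrocytes (-0.27 and 0.16), Olig1 and Gpr17 of the oligodendrocyte lineage (-0.28 and 0.08) and Aif1 of microglia (0.12), each value a log2 difference. Rbfox3, a neuronal nuclear protein, had a difference of -0.34 ± 0.14 and Cx3cr1, a microglial chemokine receptor, of 0.19 ± 0.09 (SE), each with groups that did not overlap and without passing. With Col1a1 they were the only markers without overlap. Over all genes, 2.63% were higher and 1.52% lower without overlap, so nothing is read from these markers. The part of these cell types in the values of Lcn2, Ptgds and Apod was not tested.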

How the data were processed

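RNA from 6 cultures, 200 ng each, was labelled with biotin and hybridised to Affymetrix arrays. The authors made the deposited intensities with RMA in Expression Console of Affymetrix (per the submitters' processing notes); versions and filters: not given in the sources used here. Intensities as deposited are linear, from 8.05 to 22019, so log2 was taken. Of 35556 rows, the platform annotation named 21789 by 1 symbol; for a gene with several rows, that with the highest mean was used, which left 19938 genes. No build is stated for the arrays.

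Groups were compared with limma 3.58.1 in R 4.3.3 (lmFit, eBayes), with Benjamini-Hochberg adjustment over all genes and no filter, and the code was tested on simulated data. With 3 arrays a group, their number limits the precision, and an exact permutation test of 1 gene cannot give a two-sided p below 0.1. Arrays of equal replicate number deviated together from their group means (r over genes = 0.51, 0.65 and 0.46), so they were treated as pairs, from the data and not the labels, in an alternative fit that took the replicate number as a block. Unless a block is named, SEs and p-values are from the fit without it, which counts differences between replicates as spread. The text names the 5 members, other lipocalins whose groups did not overlap, neighbours of Lcn8 and genes most like it. From each list it names the genes that passed or otherwise the 2 smallest p. Lrp2, Slc22a17, Stra6, Ttr, Bsg, Ptgs2, Hpgds, Ptgdr and Gfap were named for their role, after values were seen. The members and lists were chosen with earlier results of these data known. Of the list genes, 16 had no row with 1 symbol and are not analysed here. The alternatives were other scalings, an offset of 16, a filter on the lowest 25% of genes, other variance settings, other rows, the replicate block and the omission of arrays.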

Additional observations from a re-analysis of the deposited data

How the results depend on the processing

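No lipocalin was called lower in any of the 21 alternative settings, and Lcn2, Ptgds, Apod and Rbp4 were not called in any that gave them a value. Apod has no value without the lowest 25% of genes or without genes of identical replicate 1 values. The log2 difference of Lcn8 lay between 0.90, with an offset of 16, which compresses it by construction, and 1.05. The count of lipocalins called higher, 1 as reported, was 0 after quantile normalisation, median centring, without moderation of the variance, with adjustment over all rows, without both arrays of replicate 1 and no block (1 with the block), and in each of the 6 omissions of 1 array. Genes called higher over the whole table numbered 3 after quantile normalisation, 0 without moderation or over all rows, 18 with the replicate block and 0 to 2 with 1 array left out. Leaving out both arrays of a replicate gave 1 without replicate 1 and no block, and with the block 38, 3 and 40 higher and 2, 0 and 5 lower without replicates 1, 2 and 3; Lcn8 was not called with the block without replicate 2. List genes called, 1 as reported (Crabp1), numbered 0 after quantile normalisation, without moderation, over all rows and without both arrays of replicate 1 and no block (1 with the block), and 0 to 1 with 1 array left out. Among the 5 lipocalins, the directions of 2 turned: Lcn2, from -0.34 to 0.33 without control replicate 1 and to 0.062 without both arrays of replicate 1 (with or without the block), and Ptgds, from 0.19 to -0.04 without control replicate 2, -0.15 without 1,25D replicate 1 and -0.055 without both arrays of replicate 1. Over the omissions of 1 array Lcn2 ran from -0.81 to 0.33 and Ptgds from -0.15 to 0.41; the cause was not tested. The replicate block changed no call of a lipocalin. Leaving out replicate 1 with no block, and leaving out the genes of identical values, were added after seeing the data.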
